A study of Homo sapiens with 6 samples.

Results

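The genes described are the inhibitory SMADs SMAD6 and SMAD7, the BMP-activated SMADs SMAD1 and SMAD5, the target genes ID1, ID2, ID3 and ID4, the decoy receptor BAMBI and the ligand BMP4. Probes were chosen by gene symbol, older synonyms counted, and 10 probes were found for 9 of the 10 genes, out of 17446 genes measured on the arrays. No named probe carries SMAD5, so it was not analysed here. The 9 genes were put together with earlier results of these arrays known, among them the lower SMAD6 and SMAD7 values with flow. The values of these genes below are therefore a description in every comparison. An adjusted p is printed only to say whether a gene was called among all genes tested. The forskolin values share their static arrays with the flow values, so they are no independent support for this choice of genes.

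The samples are kidney organoids at day 35, made from the human embryonic stem cell line H9, with 1 array for each of 6 groups. Organoids without a working PKHD1 copy (PKHD1-/-, clone C51) and with 1 copy left (PKHD1+/-, clone C9) were each kept in 3 cultures, so each genotype rests on 1 clone and clone and genotype cannot be told apart. PKHD1 is the gene of autosomal recessive polycystic kidney disease, and no organoid with 2 intact copies was analysed here. In the flow culture, organoids sat on an extracellular matrix and were perfused at 4.27 ml/min, starting on day 15. Forskolin, which activates adenylyl cyclase and so raises cyclic AMP, was given at 20 µM in the forskolin culture, starting on day 14. In the static culture they sat on the matrix without flow. The labels do not place the forskolin organoids on the matrix, and the names of the scanner files put both forskolin arrays in a scan session of their own. Matrix, session and forskolin thus cannot be told apart. Both forskolin arrays were also the dimmest, with a median spot 16.5 and 21.2 intensity units above the blank spots, against 33.6 to 58.3 on the other 4 arrays. The 2 probes of PKHD1 averaged 7.33 to 7.37 log2 units in PKHD1-/- and 7.24 to 7.49 in PKHD1+/- organoids, with overlapping ranges. Where they lie relative to the edited site is not given in the sources used here, so they do not check the genotype labels. Of the kidney markers checked, the transcription factors WT1 and PAX8 and the epithelial EPCAM and CDH1 lay above background on all 6 arrays. UMOD, of the thick ascending limb, did on 4. Of all 17446 genes, 14739 lay above background on all 6. The arrays measure RNA from whole organoids, so fewer cells of a type and less RNA per cell cannot be told apart.

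Bone morphogenetic proteins (BMPs) bind paired serine kinase receptors, which phosphorylate SMAD1 and SMAD5. These join SMAD4, enter the nucleus and switch on target genes, of which the ID genes are the best known. ID proteins carry a helix-loop-helix but no DNA-binding region, and they hold back E proteins and tissue-specific partners such as MyoD. SMAD6 and SMAD7 are themselves targets and close a negative feedback loop at the receptors, and BAMBI, which lacks a kinase, acts as a decoy receptor. In the developing kidney, BMP4 from stromal cells and BMP7 from the ureteric bud and nephron progenitors shape branching and progenitor survival.

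In the RefSeq annotation of GRCh38.p14 the ID genes are short and lie apart. ID1 is at chr20:31605289-31606510, ID2 at chr2:8682056-8684461, ID3 at chr1:23557926-23559501 and ID4 at chr6:19837370-19842197. SMAD6 is at chr15:66702236-66782849, SMAD7 at chr18:48919853-48950965, SMAD1 at chr4:145480770-145559176, BAMBI at chr10:28677521-28682932 and BMP4 at chr14:53949736-53956891. All 9 are protein-coding. The promoters of SMAD6, ID1, ID3 and ID4 are printed because these genes stand for the low values described below. Each has a single RefSeq start and holds a motif marked in capitals. Each runs 5′ to 3′ from 250 bases before to 50 bases after the RefSeq start. Capitals mark matches, on either strand, to the palindromic SMAD3/4 box GTCTAGAC, the short cyclic AMP response element TGACG or the TATA box TATAAA.
SMAD6, GRCh38.p14 chr15:66701986-66702285, plus strand: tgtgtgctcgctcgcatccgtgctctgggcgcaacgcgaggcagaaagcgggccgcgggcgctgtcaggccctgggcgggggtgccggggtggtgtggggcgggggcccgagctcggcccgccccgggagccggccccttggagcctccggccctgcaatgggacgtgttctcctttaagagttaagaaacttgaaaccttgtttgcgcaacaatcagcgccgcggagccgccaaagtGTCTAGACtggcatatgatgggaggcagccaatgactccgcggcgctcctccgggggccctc
ID1, GRCh38.p14 chr20:31605039-31605338, plus strand: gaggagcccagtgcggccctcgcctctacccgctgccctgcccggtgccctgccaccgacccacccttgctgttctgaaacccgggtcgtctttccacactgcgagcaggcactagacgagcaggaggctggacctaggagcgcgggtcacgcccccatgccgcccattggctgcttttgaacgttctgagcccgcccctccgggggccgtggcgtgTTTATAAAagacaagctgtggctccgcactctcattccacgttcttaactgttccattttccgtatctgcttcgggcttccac
ID3, GRCh38.p14 chr1:23559452-23559751, minus strand: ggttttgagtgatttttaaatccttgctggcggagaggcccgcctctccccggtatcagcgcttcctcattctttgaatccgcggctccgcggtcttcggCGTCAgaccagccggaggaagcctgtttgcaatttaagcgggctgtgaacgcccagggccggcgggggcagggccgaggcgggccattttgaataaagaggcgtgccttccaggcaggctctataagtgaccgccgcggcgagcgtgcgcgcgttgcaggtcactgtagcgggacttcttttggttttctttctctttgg
ID4, GRCh38.p14 chr6:19837120-19837419, plus strand: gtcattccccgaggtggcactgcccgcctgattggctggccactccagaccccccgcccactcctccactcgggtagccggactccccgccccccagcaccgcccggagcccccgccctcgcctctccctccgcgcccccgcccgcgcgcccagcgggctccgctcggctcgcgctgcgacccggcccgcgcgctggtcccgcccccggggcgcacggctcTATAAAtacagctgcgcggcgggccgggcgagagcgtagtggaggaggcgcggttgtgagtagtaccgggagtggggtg

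SMAD6 held GTCTAGAC at position -12 from its start, a motif in 0.202% of the 35116 promoter windows of the table. ID3 held TGACG in reverse, a motif in 24.6% of all windows, and none of the 4 held the full element TGACGTCA, found in 1.85%. A TATA box began at position -31 of ID1, where a reverse match at -33 overlaps it, and at position -29 of ID4, against 11.5% of all windows. The GC-rich element GGCGCC, bound by SMAD1 and SMAD5, stood in none of the 4, but in the BAMBI window, in 2 of the 5 SMAD1 windows and in 1 of the 3 BMP4 windows, against 19.2% of all windows. The E-box CANNTG, not in capitals, was found in 68.7% of all windows and in those of SMAD6, ID2 and ID4, but not of ID1 or ID3. TGACG lies inside TGACGTCA, so these motifs overlap. The 4 windows were chosen for holding a motif in capitals, so setting them against all windows is no test. A match is a string of letters, and distant elements were not searched.

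All values below are log2 intensities after background correction and quantile normalization unless stated otherwise. All 10 probes lay above background on all 6 arrays, that is, over the mean of the blank spots plus 2 of their SDs. On each array 83.6 to 94.7% of all probes did so, and the dimmer BAMBI probe passed at 1.05 to 1.22 times the blank mean. The ID probes were bright, at 25.0 to 219 times the blank mean on the 4 flow and static arrays, while SMAD7 stood at 2.65 to 5.21 times and SMAD6 at 4.70 to 11.1 times the blank mean on the same arrays. With forskolin SMAD7 reached only 1.40 times the blank mean in PKHD1-/- and 1.70 times in PKHD1+/-, so its low values are close to the detection limit. A probe's brightness depends on its sequence, so the order between genes is not an order of expression.

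**Figure D1:**
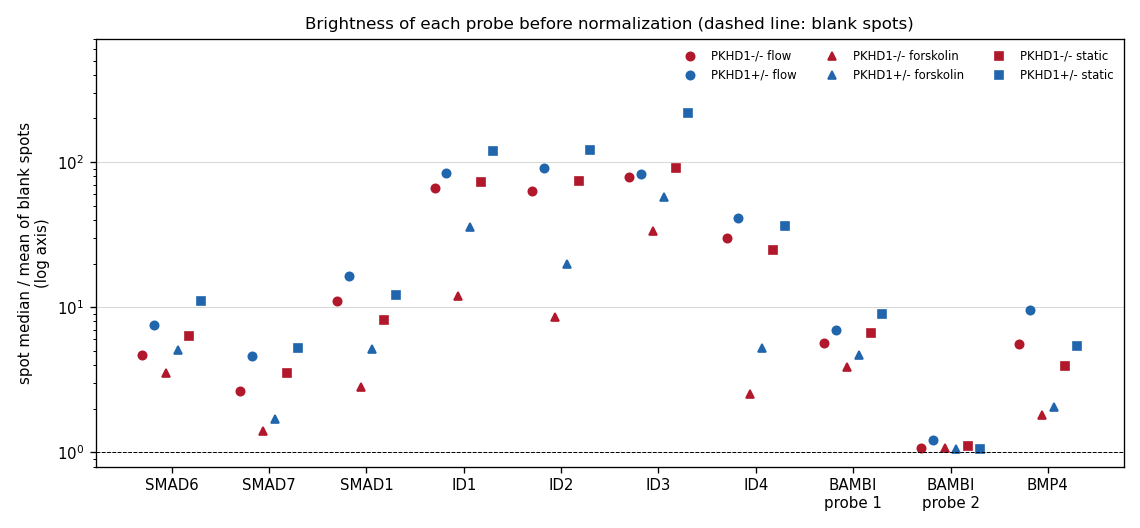
Brightness of each of the 10 probes before normalization, as the spot median over the mean of the blank spots of the same array (log axis), for the 6 arrays. The ID probes lie far above the blank spots under flow and in static culture, ID4 (2.54 times the blank mean in PKHD1-/-) and SMAD7 come near them with forskolin, and the second BAMBI probe stays at 1.05 to 1.22 times the blank mean on every array.

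The inhibitory SMADs had their lowest values in different cultures. SMAD6, which mainly blocks BMP signalling, had 7.55 and 7.55 in PKHD1-/- and PKHD1+/- organoids under flow, 8.06 and 8.31 with forskolin, and 8.19 and 8.58 in static culture. Both flow arrays lay below all 4 others, while the ranges with forskolin and in static culture overlapped. SMAD7, which blocks both BMP and TGF-beta receptors, had 6.84 and 6.94 under flow, 6.48 and 6.71 with forskolin, and 7.37 and 7.59 in static culture. Its static arrays were the highest and its forskolin arrays the lowest, with no overlap between the 3 cultures.

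The 4 ID genes shared their order in part. ID1 had 11.20 and 11.09 in PKHD1-/- and PKHD1+/- organoids under flow, 9.82 and 10.98 with forskolin, and 11.79 and 11.99 in static culture. ID2 had 11.14 and 11.20 under flow, 9.34 and 10.18 with forskolin, and 11.80 and 12.01 in static culture. For both genes the cultures did not overlap, and the PKHD1-/- forskolin array was the lowest of the 6. ID3 had 11.41 and 11.06 under flow, 11.27 and 11.62 with forskolin, and 12.17 and 12.88 in static culture, so that flow and forskolin overlapped below static culture. ID4 had 10.04 and 9.99 under flow, 7.55 and 8.35 with forskolin, and 10.24 and 10.20 in static culture. The 4 flow and static values of ID4 lay close together but did not overlap, and both forskolin values lay far below them.

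SMAD1, the transducer, had 8.69 and 8.64 in PKHD1-/- and PKHD1+/- organoids under flow, 7.72 and 8.33 with forskolin, and 8.57 and 8.70 in static culture. Flow and static overlapped, and both forskolin arrays were lower. BMP4, the ligand, had 7.77 and 7.88 under flow, 6.99 and 7.01 with forskolin, and 7.54 and 7.63 in static culture, the only measured member whose flow arrays were both the highest. BAMBI had 6.82 and 6.63 under flow, 7.03 and 7.03 with forskolin, and 7.06 and 7.05 in static culture, as the mean of 2 probes. Its brighter probe had 7.80 and 7.44 under flow, 8.19 and 8.20 with forskolin, and 8.26 and 8.29 in static culture. The dimmer probe stayed between 5.81 and 5.87 on every array, so the mean of both moves less than the brighter probe.

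**Figure D2:**
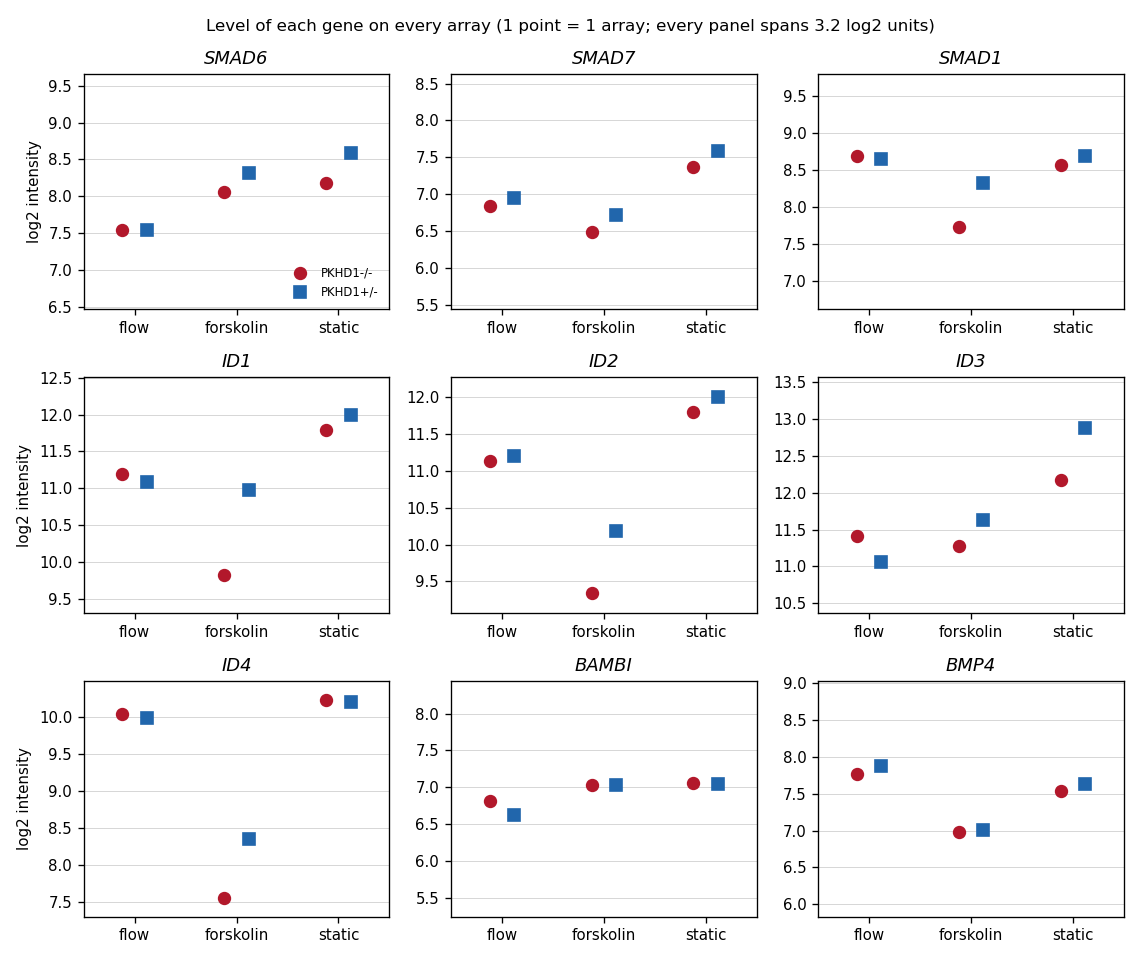
Level of the 9 measured genes on each of the 6 arrays in log2 intensity, with every panel spanning the same range. Circles are PKHD1-/- and squares PKHD1+/- organoids. The ID genes and SMAD7 are highest in static culture, ID4 is low with forskolin, and SMAD6 is low under flow.

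Limma's moderated SD, the scatter left by culture and genotype after it was drawn towards that of all genes, was smallest for BMP4 and SMAD7, at 0.061 and 0.067. It was largest for ID1 and ID3, at 0.35 and 0.29, and the SEs below are built from it.

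The forskolin comparison sets 2 arrays against the 2 static arrays, paired by genotype, and asks what a lasting cyclic AMP stimulus goes with. All 9 measured genes were lower with forskolin in both genotypes, where 35.1% of the 16364 genes tested were, though BAMBI had a positive mean with 75th percentile scaling and in the authors' value table. At least 0.5 lower in both genotypes were 6 of the 9, namely SMAD7, ID1, ID2, ID3, ID4 and BMP4, against 4.8% of all genes. These were 5 with 75th percentile scaling and with cyclic loess, both without BMP4, and 5 in the authors' value table, without ID3. The mean difference was -2.27 ± 0.27 for ID4 (SE, n = 2 pairs), a 4.81-fold lower intensity, from -2.69 in PKHD1-/- and -1.85 in PKHD1+/-. For ID2 it was -2.14 ± 0.23, from -2.46 in PKHD1-/- and -1.82 in PKHD1+/-. The 2 genes lay below every other measured member in this comparison. For ID1 the mean was -1.49 ± 0.35, from -1.96 in PKHD1-/- and -1.02 in PKHD1+/-. For ID3 it was -1.08 ± 0.29, from -0.89 in PKHD1-/- and -1.26 in PKHD1+/-. Whether the ID genes differed from each other was not tested.

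SMAD7 fell with forskolin, by nearly the same amount in both genotypes, -0.89 in PKHD1-/- and -0.88 in PKHD1+/-, a mean of -0.88 ± 0.07 (limma, adjusted p = 0.0484). It was the 1 measured member past the threshold of 0.05, where limma called 0.33% of all genes lower and 0.703% higher, and 23.2% had an unadjusted p under 0.05. BMP4, at -0.59 ± 0.06, ID2 and ID4 came close to the threshold (limma, adjusted p = 0.0588, 0.0588 and 0.0624). ID1 and ID3 did not pass (adjusted p = 0.136 and 0.162), nor did SMAD1, at -0.61 ± 0.19 (adjusted p = 0.186). SMAD1 differed by -0.85 in PKHD1-/- and -0.37 in PKHD1+/-, and its mean was -0.33 without the PKHD1-/- forskolin array. SMAD6, at -0.20 ± 0.12, and BAMBI, at -0.03 ± 0.08, did not pass either (adjusted p = 0.423 and 0.860), and the BAMBI value was 0.20 with 75th percentile scaling and 0.23 in the authors' value table. The SMAD7 difference was -1.64 in that table, which adds no offset to these dim spots. Its call ended when any 1 of the 6 arrays was left out, as did every other call in this comparison, at SMAD7 values from -0.92 to -0.85. The part of the dimmer forskolin arrays in these differences was not tested.

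**Figure D3:**
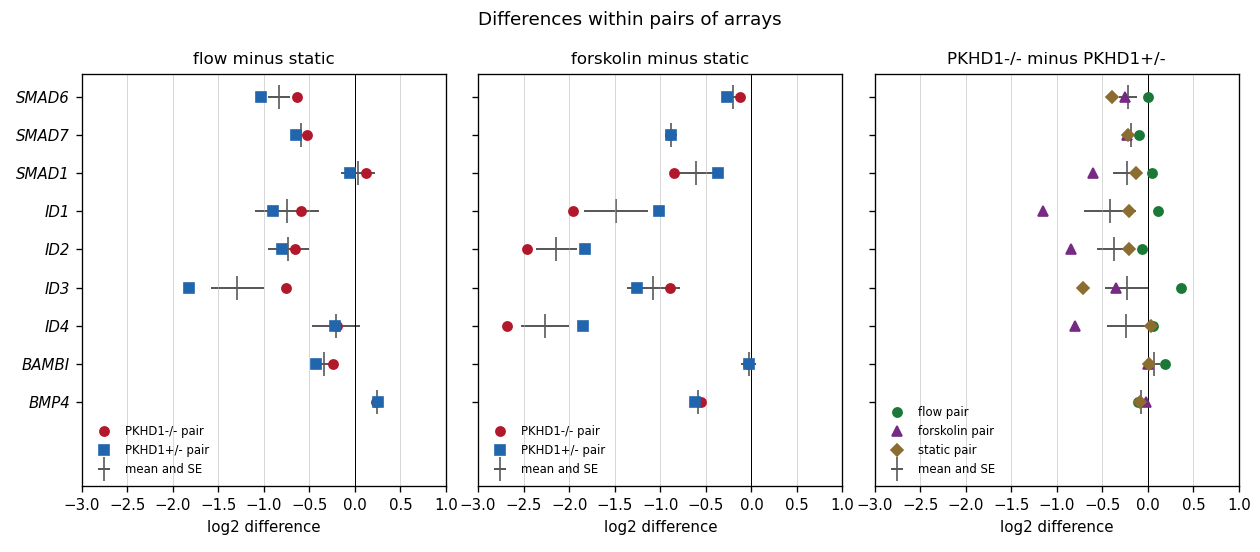
Log2 differences of the 9 measured genes within pairs of arrays, for flow minus static, forskolin minus static and PKHD1-/- minus PKHD1+/-. Coloured points are single pairs, and the grey mark and bar are the mean and limma's moderated SE. With forskolin every pair lies below 0 and ID4 and ID2 have the lowest means, while the genotype differences of ID1, ID2, ID4 and SMAD1 are widest in the forskolin pair.

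The flow comparison also sets 2 arrays against the same 2 static arrays, so its values are not independent of the forskolin values. At least 0.5 lower under flow in both genotypes were SMAD6, SMAD7, ID1, ID2 and ID3, 5 of the 9 measured genes, where 0.574% of all genes were. With 75th percentile scaling these were 2, SMAD6 and SMAD7, since the PKHD1-/- pairs of ID1, ID2 and ID3 were then at -0.38, -0.47 and -0.43. Lower in both genotypes at any size were 7 of the 9, against 24.2% of all genes, but ID4 was not with 75th percentile scaling, nor BAMBI in the authors' value table. ID3 had the largest mean difference, -1.29 ± 0.29 (SE, n = 2 pairs), but the pairs were far apart, at -0.76 in PKHD1-/- and -1.82 in PKHD1+/-. For SMAD6 the mean was -0.84 ± 0.12, with -0.64 in PKHD1-/- and -1.03 in PKHD1+/-. For SMAD7 it was -0.59 ± 0.07, with -0.53 in PKHD1-/- and -0.65 in PKHD1+/-. The SMAD7 pairs lay closer together than those of SMAD6.

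ID1 and ID2 had like means under flow, at -0.75 ± 0.35 and -0.73 ± 0.23. ID1 differed by -0.59 in PKHD1-/- and -0.90 in PKHD1+/-, and ID2 by -0.66 in PKHD1-/- and -0.80 in PKHD1+/-. ID4 differed little, at -0.21 ± 0.27, its mean was 0.01 without the PKHD1+/- flow array, and its PKHD1-/- pair was at 0.01 with 75th percentile scaling. BAMBI stood at -0.33 ± 0.08, and its brighter probe alone at -0.65. BMP4 was the measured member with higher values under flow in both genotypes, at 0.24 in PKHD1-/- and 0.25 in PKHD1+/-, and 21.1% of all genes were higher in both. SMAD1, at 0.03 ± 0.19, had opposite signs in the 2 genotypes, and its mean was -0.02 in the authors' value table. Limma called 0 of 16364 genes for flow, and 971 (5.93%) had an unadjusted p under 0.05. With its trend and robust settings limma called 1, the metallothionein gene MT1M.

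The genotype comparison sets 3 PKHD1-/- arrays against 3 PKHD1+/- arrays, paired by culture. Of the 9 measured genes, 4 were lower in PKHD1-/- in all 3 cultures, namely SMAD6, SMAD7, ID2 and BMP4, where 9.07% of all genes were, although SMAD6 stood at 7.55 in both genotypes under flow. With 75th percentile scaling SMAD7 was the 1 that stayed lower in all 3, since SMAD6 under flow was at 0.01, ID2 under flow at 0.21 and BMP4 with forskolin at 0.05. ID2 under flow and BMP4 with forskolin were also positive in the authors' value table, at 0.12 and 0.13, and BMP4 with forskolin was at 0.05 with cyclic loess. BAMBI was higher in all 3 cultures, where 11.7% of all genes were, except in static culture with cyclic loess, at -0.01, and under flow in the value table, at -0.33. SMAD7 differed by -0.18 ± 0.06 (SE, n = 3 pairs), with -0.10 under flow, -0.23 with forskolin and -0.22 in static culture. ID2 differed by -0.37 ± 0.19, with -0.06 under flow, -0.84 with forskolin and -0.21 in static culture. Limma called 0 of 16364 genes for genotype, with 528 (3.23%) at an unadjusted p under 0.05, and 0 with its trend and robust settings. The adjusted p was 1.00 for each of the 9 genes.

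For ID1, ID2, ID4 and SMAD1 the genotypes stood furthest apart with forskolin. There ID1 differed by -1.15 between PKHD1-/- and PKHD1+/- organoids, ID4 by -0.80 and SMAD1 by -0.60. In the flow and static pairs ID1 differed by 0.11 and -0.21, ID4 by 0.06 and 0.04, and SMAD1 by 0.04 and -0.13. ID3 had its widest gap in static culture, with 0.36 under flow, -0.35 with forskolin and -0.71 in static culture. Within the scan session of the flow and static arrays the mean genotype difference was -0.05 for ID1 and 0.05 for ID4. A difference inside 1 culture rests on 1 array of each genotype and was not tested.

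The other genes of the pathway were taken from 5 lists of BMP ligands, receptors and co-receptors, transducers with E proteins, secreted antagonists and target genes, of which 61 of 65 genes were tested. With forskolin, 4 passed the threshold, all of them higher, and 0 passed it as lower. Among all 61, 25 were lower with forskolin in both genotypes, against 35.1% of all genes. Higher in both were 17, for which the share over all genes is not given here. Of the 12 target genes tested, 10 had a negative mean difference with forskolin and 2 a positive one, but 7 were lower in both genotypes. Some of the 10 were near 0, such as MSX2 and ATOH8, both at -0.01. ATOH8 lay above background on only 2 arrays. RGMA, a membrane-bound BMP co-receptor, rose by 2.25 ± 0.07 (limma, adjusted p = 0.0277), with 9.49 and 9.15 in PKHD1-/- and PKHD1+/- organoids with forskolin, against 7.15 and 6.97 in static culture. HJV, a co-receptor of the same family made in liver and skeletal muscle, rose by 1.37 ± 0.11 (adjusted p = 0.0491), with 7.69 and 7.12 with forskolin, against 6.17 and 5.90 in static culture. Both co-receptors thus stood above static culture in each genotype. NBL1, a secreted BMP antagonist also called DAN, rose by 2.58 ± 0.06 (adjusted p = 0.0244), with 10.24 and 9.95 with forskolin, against 7.65 and 7.39 in static culture. HEYL, a transcription repressor of the HEY family, rose by 0.98 ± 0.07 (adjusted p = 0.0474), with 7.18 and 7.21 with forskolin, against 6.27 and 6.17 in static culture. Over all genes tested the share called higher was 0.703%, as above, and these calls too ended when any 1 array was left out. On the lower side, 2 genes came close to the threshold. They were the target KLF10, at -0.92 ± 0.08 (limma, adjusted p = 0.0505), and the antagonist TWSG1, at -1.16 ± 0.12 (adjusted p = 0.0588).

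As a group the pathway genes were centred near the rest of the transcriptome, but several of them were dim. Among the dim ones were GDF2, GDF5 and BMP8B, at 5.87 to 6.03 on every array. Values this low leave little room for a fall, which limits what a median near 0 can show. The median over the 61 genes was -0.04 with forskolin and 0.05 under flow, against 0.00 and -0.01 over all genes, while the 9 measured members, whose choice is not independent of these values, had -0.88 and -0.59. Among ligands, BMP2 had the largest difference with forskolin, -0.60 ± 0.12 (adjusted p = 0.108). Among transducers, the shared partner SMAD4 stood at -0.88 ± 0.15 (adjusted p = 0.0906) and the E protein TCF4, which ID proteins hold back, at 1.00 ± 0.13 (adjusted p = 0.0712). TCF4 was also higher under flow in both genotypes, at 1.31 in PKHD1-/- and 1.06 in PKHD1+/-. Under flow 0 of the 61 genes passed. The largest value was that of MSX1, a homeobox target of BMP, at 1.58 ± 0.46, from 2.32 in PKHD1-/- and 0.84 in PKHD1+/-. RGMA, HJV and NBL1, called higher with forskolin, were also higher under flow in both genotypes, with means of 0.70, 0.60 and 0.60. HEYL stood at 0.01 under flow.

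The TGF-beta branch, which uses SMAD2 and SMAD3 in place of SMAD1 and SMAD5, was read from 12 tested genes. None passed the threshold in any of the 3 comparisons, and the medians were -0.04 with forskolin and -0.08 under flow. Its largest forskolin value was that of CCN2, a matrix protein and a target of TGF-beta and YAP, at -2.56 ± 0.79 (adjusted p = 0.187). TGFB3, a ligand, stood at 1.38 ± 0.25 (adjusted p = 0.0971).

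**Figure D4:**
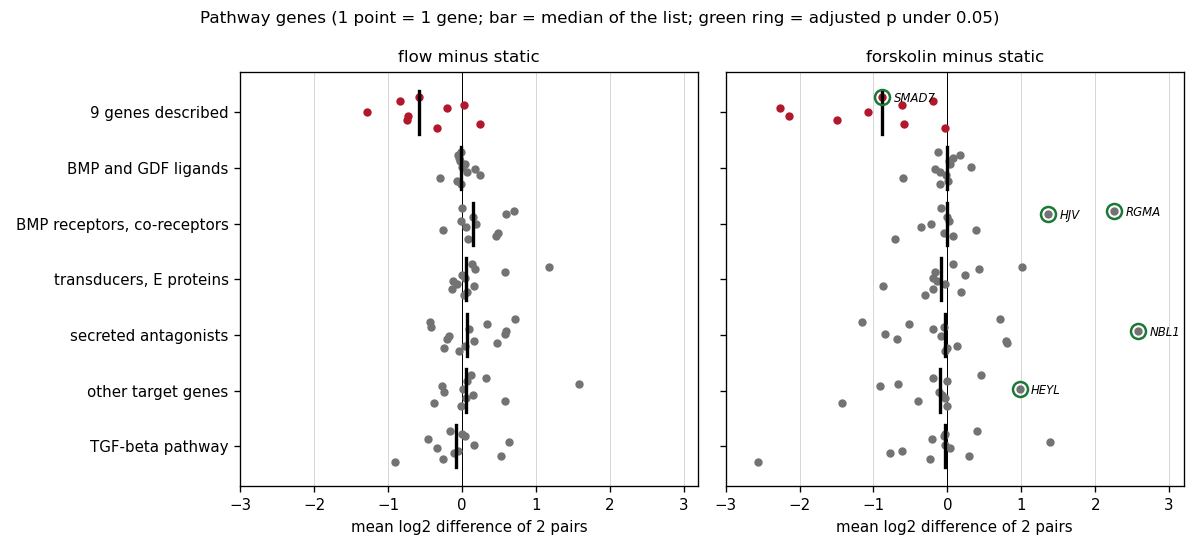
Mean log2 difference of 2 pairs for each tested gene of the 9 measured members, the 5 BMP pathway lists and the TGF-beta list, for flow and for forskolin against static culture. Black bars are list medians, and green rings mark genes with an adjusted p under 0.05. Most members lie left of 0 (all 9 with forskolin), the other lists are centred near 0, and RGMA, NBL1, HJV and HEYL stand out on the right with forskolin.

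Markers of skeletal muscle, a cell type outside the kidney, differed between the cultures in the opposite order to ID1, ID2, ID4 and SMAD7. The summed normalized intensity of 15 muscle markers was 34606 and 20951 in PKHD1-/- and PKHD1+/- organoids under flow, 88795 and 84979 with forskolin, and 7538 and 2274 in static culture. All 15 had a positive mean difference under flow and with forskolin, 14 of them in both genotypes, with medians of 1.72 and 3.32, and 5 passed the threshold with forskolin, namely MYOG, CKM, ACTA1, TNNC2 and MYH3. Between 13 and 15 of them lay above background on each array, where 83.6 to 94.7% of all probes did. MYOD1, the muscle-determining transcription factor whose activity ID proteins restrain, had 9.35 and 8.56 under flow, 10.31 and 10.61 with forskolin, and 7.16 and 6.36 in static culture. MYOG, its downstream partner, rose with forskolin by 2.66 ± 0.14 (limma, adjusted p = 0.0431). ID1, ID2, ID4 and SMAD7 were highest in static culture, where muscle markers were lowest, and lowest with forskolin, where muscle markers were highest. These members were singled out after the values were seen, and no other member shared their order. For ID3, flow and forskolin values overlapped. For ID4 the flow and static values lay close together. In static culture ID1, ID2 and SMAD7 were lower in PKHD1-/-, which had the higher muscle sum, but ID4 differed by 0.04. Under flow, with the sum again higher in PKHD1-/-, ID1 and ID4 were higher there and ID2 and SMAD7 lower. With forskolin the sums lay close, while ID1 differed by -1.15 between PKHD1-/- and PKHD1+/-. The part of muscle cells in the ID, SMAD7, RGMA and HJV values was not tested.

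**Figure D5:**
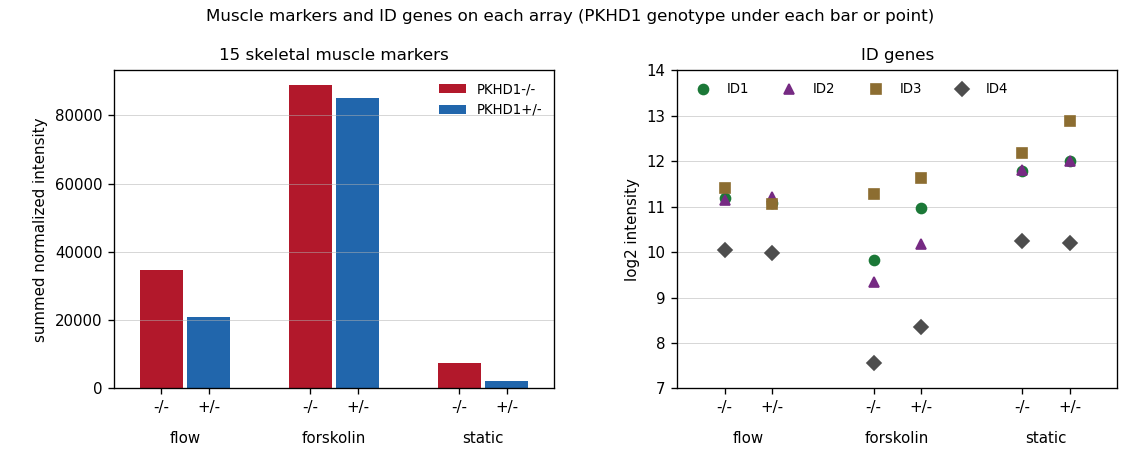
Left, summed normalized intensity of 15 skeletal muscle markers on each array, with PKHD1-/- beside PKHD1+/- organoids in each culture. Right, log2 intensity of ID1, ID2, ID3 and ID4 on the same arrays. The muscle sum is highest with forskolin, at 88795 and 84979, and lowest in static culture, at 7538 and 2274.

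Endothelial cells, which make much SMAD6 and ID1, were read from 17 measured markers. Their summed intensity was 1486 and 1626 in PKHD1-/- and PKHD1+/- organoids under flow, 1818 and 1767 with forskolin, and 1930 and 1998 in static culture. The sum was lowest under flow and highest in static culture, with no overlap, and SMAD6 was also lowest under flow. Under flow 12 of the 15 tested markers had a negative mean difference and 7 were lower in both genotypes, with a median of -0.14. CDH5, VWF and FLT1 lay low, between 5.81 and 6.13 on every array, and stood at 0.00, -0.03 and 0.02 under flow. CLDN5, EMCN and EGFL7 were brighter and were lower under flow in both genotypes, with means of -0.79, -0.86 and -0.49. TEK and CLEC14A lay above background on only 1 array each. On each array 14 to 17 of the 17 lay above background, where 83.6 to 94.7% of all probes did. With forskolin the median was 0.03 and 8 of the 15 had a positive mean difference. Of these markers 1 passed the threshold, EMCN, a capillary sialomucin, which fell by 1.47 ± 0.09 on the log2 scale (limma, adjusted p = 0.0445), while the VEGF receptor KDR stood at 0.73 ± 0.07 (adjusted p = 0.0565). Markers of other cells also differed between cultures. Podocyte markers summed to 2221 and 1805 under flow, 3397 and 3192 with forskolin, and 3190 and 3667 in static culture. The podocyte sum was thus also lowest under flow, and its forskolin and static values overlapped, as those of SMAD6 did. Neuron and neural progenitor markers summed to 4367 and 4082 under flow, 3393 and 2535 with forskolin, and 2322 and 2290 in static culture. This sum leans on DCX, the brightest of them on every array, at 10.96 and 10.02 with forskolin against 9.19 and 9.16 in static culture. With forskolin 7 of the 14 tested had a positive and 7 a negative mean difference, with a median of 0.00. Cartilage markers summed to 3125 and 3072 under flow, 1550 and 1865 with forskolin, and 1758 and 1479 in static culture. Cartilage sums were thus highest under flow. Tubule markers summed to 3303 and 3442 under flow, 1701 and 1671 with forskolin, and 2283 and 3513 in static culture. Stroma markers summed to 19158 and 28878 under flow, 20278 and 20789 with forskolin, and 32552 and 25437 in static culture. Both sums were lower with forskolin than in static culture, with no overlap, while flow and static culture overlapped. The part of these cell types in the member values was not tested.

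Among the 14739 genes above background on all 6 arrays, those whose profile came closest to each of 3 members were ranked by Pearson's r over the 6 arrays. For SMAD6 these were CD55, a complement inhibitor, TJP1, the tight junction scaffold ZO-1, and TNFAIP6, a hyaluronan-binding protein (r = 0.989, 0.988 and 0.984). For SMAD7 they were DEGS1, a ceramide desaturase, CCR6 and CPZ (r = 0.993, 0.990 and 0.990). For ID1 they were SNX8, E2F6 and DEPDC1B (r = 0.991, 0.989 and 0.988). The 6 arrays share 3 cultures and 2 clones, and the best of so many genes is close by selection, so these are descriptions with no p.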

How the data were processed

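RNA of the 6 samples was labelled with Cy5 and measured on 1-colour 3D-Gene Human 25k arrays, per the labels. The scanner files give each spot's median intensity, linear and with its background still in it, per the file headers. The authors' value table, used as an alternative, holds intensities linear in those spot medians, with 0 at the blank mean (trimmed) and a median of 25 on each array.

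Spot medians underwent normexp correction (offset 50), a log2 step and quantile normalization (limma 3.58.1, R 4.3.3). Of 24460 probes, 20236 have 1 gene symbol, none has several and 4224 have none. Symbols came from the platform annotation and were updated through RefSeq (2899 changed, 99 kept as listed). Left out were 205 probes carrying a not-good mark, and probes of a gene were averaged. Of 17446 genes, 16364 lay above background on at least 2 arrays and were tested by limma with additive terms for culture and genotype, 2-sided, with Benjamini-Hochberg adjustment over all genes tested and a threshold of 0.05. Residual degrees of freedom were 2, to which the prior added 1.54. No group holds more than 1 array, so p-values measure only what culture and genotype leave over, which may be technical, and the number of arrays limits the precision. The procedure was tested on simulated data. Members and lists were chosen with earlier results of these data known. All 9 measured members are named. From the pathway lists, genes past the threshold are named, or else those with the largest difference of 1 sign in every pair, and profile neighbours by Pearson's r. MT1M, KLF10, TWSG1, the cell type markers named and the pathway genes named as dim or near 0 were singled out after their values were seen. Promoters came from RefSeq (GRCh38.p14), where all 10 genes matched.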

Additional observations from a re-analysis of the deposited data

Results flagged for a closer look

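SMAD1 moved in opposite directions under flow in the 2 genotypes, at 0.12 in PKHD1-/- and -0.05 in PKHD1+/- organoids. The gap of 0.17 is smaller than limma's moderated SD of this gene, 0.19, and the difference was not tested, since each response rests on 1 pair of arrays.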

How the results depend on the processing

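Over 459 recomputed values of the 9 measured genes, 395 lay within 1 moderated SD of the value reported, 64 moved further and 13 changed sign, none of these with a reported difference of 0.5 or more. Part of the 395 was fixed in advance. Several alternatives change only the test or the gene filter, or drop an array of the culture not compared, so the value cannot move. The genotype count stayed at 0 under all alternatives run. The flow count was 1 (MT1M) with limma's trend and robust settings and 0 in the other alternatives. The forskolin count of 169 (115 higher, 54 lower) became 6833 (5991 and 842) with 75th percentile scaling, which moved the median of all genes by 0.31 (by -0.11 for flow), with SMAD7 then at -0.72. It was 8 (8 and 0) with cyclic loess, 657 (299 and 358) in the authors' value table, 1177 (596 and 581) with trend and robust settings, 585 (330 and 255) with an offset of 16, 41 (35 and 6) with no filter on dim probes and 1096 (628 and 468) without pairing by genotype, that is, with no replicate block. It was 0 whichever array was left out. SMAD7 was called with forskolin in 7 of 16 alternatives (adjusted p from 0.0159 to 0.314), ID2 and ID4 in 5 each, BMP4 in 2 and ID1 in 1. Leaving out the PKHD1-/- or the PKHD1+/- flow array moved the flow value of ID1 to -1.14 or -0.35 and that of ID3 to -1.73 or -0.85. The genotype value of ID1 was -0.05 without either forskolin array. The dim SMAD7, BMP4 and BAMBI spots limit what their values can show, and BMP4 with forskolin, at 1.82 and 2.06 times the blank mean, was at -0.98 in the value table.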
